A study of Arabidopsis thaliana with 6 samples.

Results

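ATP-binding cassette (ABC) transporter genes of Arabidopsis thaliana were examined for peaks of HID1, a noncoding RNA studied for its part in seed germination. The members were the nuclear protein-coding genes whose symbol or synonym in the TAIR10.1 gene table is ABCA, ABCB, ABCC, ABCD, ABCE, ABCF, ABCG or ABCI followed by a number. They came to 127 of 27444 nuclear protein-coding genes, 124 by symbol and 3 by synonym (PGP10 as ABCB10, PEN3 as ABCG36 and NAP7 as ABCI6, called here by their ABC names). By subfamily there were 12 ABCA, 28 ABCB, 15 ABCC, 2 ABCD, 3 ABCE, 5 ABCF, 43 ABCG and 19 ABCI genes. All 127 were compared with the peak positions, and no filter on low values was used. How well reads map to each gene was not examined.

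Chromatin isolation by RNA purification (ChIRP) pulls down the DNA that is cross-linked to an RNA, here with biotinylated antisense DNA probes along the length of HID1. Each library was made from 0.3 g of wild-type Col-0 seeds that had been given red light for 5 min, which activates the photoreceptor phytochrome B (the phyB-on condition), and then kept in darkness for 48 h. The series has 3 groups of 2 libraries: HID1 probes, mock with unlabelled probes, and input. Values come from the lists of both probe libraries, with 4557 peaks after fixation in 1% formaldehyde and 6306 peaks after fixation in 1% glutaraldehyde. Mock and input were not analysed here. Every count below therefore stands without a background measured here in control libraries. Whether the peaks were called against such a library is not stated. With 1 library for each cross-linker there is no replicate check and no test between samples, and cross-linker and library cannot be told apart. Read depth is unknown. The lists hold no expression values, so the seed label could not be checked against marker genes.

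ABC proteins use ATP, bound by a pair of nucleotide-binding domains, to move a substrate across a membrane. In plants their substrates include hormones, cuticle and suberin lipids, metal and glutathione conjugates, and fatty acyl compounds. The ABCE and ABCF proteins lack membrane-spanning domains and are soluble, and most ABCI proteins resemble single subunits of bacterial transporters. In seeds, ABCG25 and ABCG31 are known to export abscisic acid (ABA), the hormone of dormancy, from the endosperm, and ABCG30 and ABCG40 to import it into the embryo.

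None of these 4 ABA carriers of the seed had a peak of either library in the gene body or within 1 kb. ABCG25 (AT1G71960) lay 22235 bp from the nearest formaldehyde peak and 10533 bp from the nearest glutaraldehyde peak. For ABCG31 (AT2G29940) these distances were 22028 bp and 11793 bp. ABCG30 (AT4G15230) lay 12312 bp from a formaldehyde peak that touched the gene BAM5 and 32315 bp from a glutaraldehyde peak. ABCG40 (AT1G15520) came closest, 1904 bp from a formaldehyde peak at 5328475 to 5329954 of chromosome 1 with a score of 65.4. That peak touched the genes ATNTT2 and ECB2. The nearest glutaraldehyde peak to ABCG40 was 27080 bp away. The score is the peak caller's own value for each peak as the authors deposited it, and it is used here to describe, rank or filter peaks within a list. A limit of 100 keeps 26.9% of the formaldehyde list and 22.8% of the glutaraldehyde list, so that the same limit is not the same cut in both. The 4 carriers are long genes, from 5855 to 7766 bp, and protein-coding genes in the same length bin had a formaldehyde peak in 28.7% and a glutaraldehyde peak in 40.3% of cases. From those shares 1.15 of the 4 genes would have a formaldehyde peak and 1.61 a glutaraldehyde peak. Taken by itself, each library thus differs from the background by fewer than 2 genes. For a peak of either library the count by length was 2.27 of the 4 genes, against 0 found. This difference rests on 4 genes and was not tested.

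Across the family, 40 of the 127 genes (31.5%) had a formaldehyde peak in the body or within 1 kb, against 16.9% of all protein-coding genes. A glutaraldehyde peak was present at 38 ABC genes (29.9%), against 25.9% of all protein-coding genes. Both shares have to be read with gene length in view, because ABC genes are long, with a median of 4610 bp against 2078 bp for all protein-coding genes, and a longer window meets more peaks. To allow for this, each member was given the share of peak-bearing genes among all protein-coding genes in its length bin (20 bins of equal size), and these shares were summed. The top bin pools ABC genes from 5312 to 13412 bp, so length is not matched within it. All protein-coding genes of 6 kb or more had ratios to their summed shares of 1.09 for formaldehyde and 1.1 for glutaraldehyde. By the summed shares 29.6 ABC genes would have a formaldehyde peak, and the observed count was 1.35 times as high. For the glutaraldehyde library 42.8 genes would have a peak, and the observed count was 0.887 times that number. A peak of either library was found at 65 ABC genes (51.2%), against 38.0% of all protein-coding genes and 61.6 genes by length (ratio 1.06), and 62 ABC genes had no peak. With peaks of score 100 or more the ratios were 1.08 for formaldehyde and 1.39 for glutaraldehyde, so that the glutaraldehyde ratio stood on the other side of 1. The formaldehyde ratio was 1.81 for the 41 ABC genes within 10 kb of another ABC gene and 1.12 for the 86 others. These ratios describe the 2 libraries and were not tested. Cytochrome P450 genes, another large family with 234 members found by symbol or synonym, had ratios of 1.11 for formaldehyde (42 genes) and 0.846 for glutaraldehyde (52 genes).

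The counts were also taken by class of gene length. Among ABC genes under 3 kb, 11 of 37 (29.7%) had a formaldehyde peak, against 14.9% of all protein-coding genes under 3 kb. From 3 to 6 kb the shares were 19 of 63 (30.2%) and 21.4%, and at 6 kb or more 10 of 27 (37.0%) and 31.4%. In the classes below 6 kb, ABC genes are still longer than all protein-coding genes. Their medians are 2393 against 1711 bp under 3 kb and 4838 against 3738 bp from 3 to 6 kb. At 6 kb or more they are shorter, with a median of 6945 against 7189 bp. By length bin the formaldehyde counts of 11, 19 and 10 genes stood beside 5.98, 15.9 and 7.75. Glutaraldehyde shares of ABC genes were 24.3% under 3 kb, 31.7% from 3 to 6 kb and 33.3% at 6 kb or more, against 23.4%, 31.6% and 44.3% of all protein-coding genes in those classes. By length bin these 9, 20 and 9 genes stood beside 9.71, 22.2 and 10.9.

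**Figure D1:**
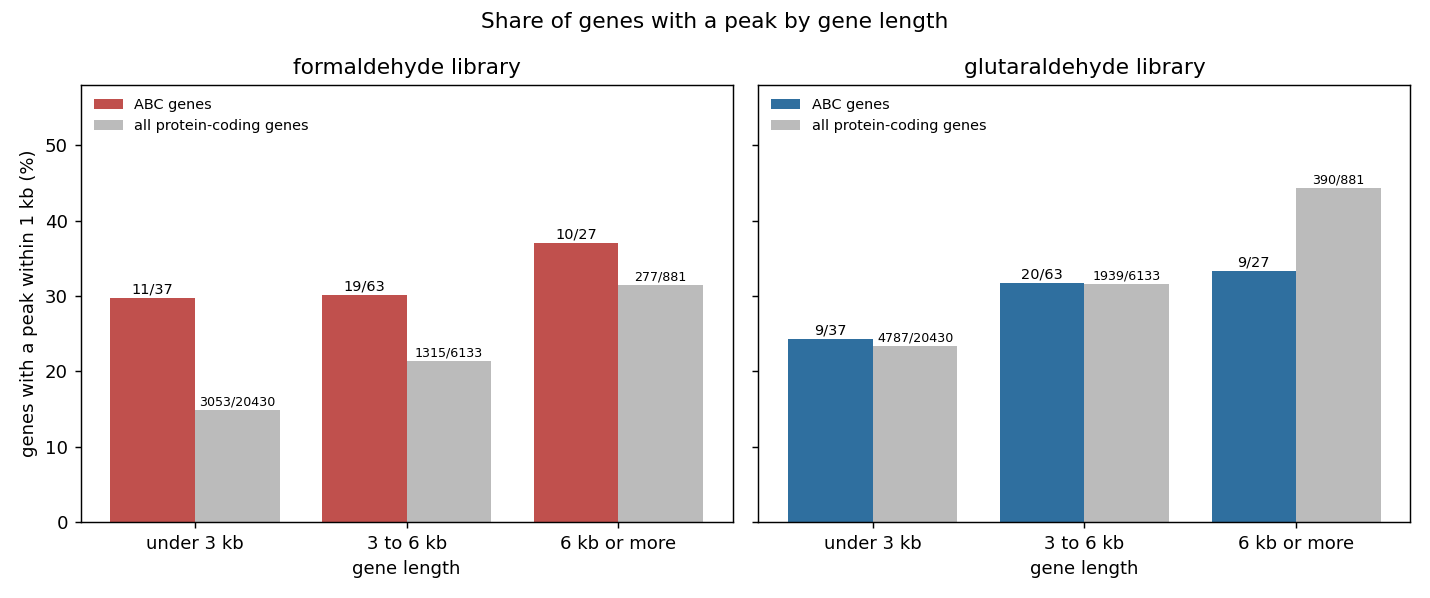
Share of genes with a peak in the body or within 1 kb (vertical axis, percent) by gene length class, with the formaldehyde library in the left panel and the glutaraldehyde library in the right panel. Coloured bars are ABC genes and grey bars all protein-coding genes, with the counts above; the formaldehyde bars of ABC genes stand above the grey bars in each length class, and the glutaraldehyde bar at 6 kb or more (9 of 27) stands below its grey bar (390 of 881).

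Per length of sequence, the merged bodies of the ABC genes (0.586 Mb) held 34 formaldehyde peak midpoints, or 58.1 per Mb, against 43.4 per Mb in the merged bodies of all protein-coding genes. They held 28 glutaraldehyde midpoints, or 47.8 per Mb, against 59.6 per Mb. With 1 kb added on either side the densities were 49.2 against 36.5 per Mb for formaldehyde and 50.4 against 58.2 per Mb for glutaraldehyde. The order of the libraries relative to all protein-coding genes was thus the same per gene and per Mb. Regional peak density was much the same around ABC genes as around other genes, with a median of 17 formaldehyde peaks within 250 kb for both and a median of 28 glutaraldehyde peaks for ABC genes against 29 for all protein-coding genes. Around the ABC genes with a formaldehyde peak the median was 18 formaldehyde peaks, and around those without one it was 16. For glutaraldehyde the medians were 31 peaks around ABC genes with a peak and 26 around those without. The lowest value for glutaraldehyde was 1 peak, around an ABC gene without a peak, and the lowest over all protein-coding genes was also 1. On each of the 5 chromosomes the formaldehyde share of ABC genes lay above that of all protein-coding genes, from 23.3% against 15.9% on chromosome 1 to 37.5% against 15.9% on chromosome 3. The formaldehyde count on chromosome 1, 7 of 30 genes, stood beside 6.98 by length.

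By subfamily, formaldehyde peaks lay at 6 of 12 ABCA genes (3.06 by length), 7 of 28 ABCB genes (7.32), 8 of 15 ABCC genes (4.27), 15 of 43 ABCG genes (9.89) and 1 of 19 ABCI genes (3.06). The subfamilies with few members had 1 of 2 ABCD (0.488 by length), 1 of 3 ABCE (0.552) and 1 of 5 ABCF genes (0.989). Glutaraldehyde peaks lay at 5 of 12 ABCA genes (4.15 by length), 8 of 28 ABCB genes (10.3), 6 of 15 ABCC genes (5.98), 11 of 43 ABCG genes (14.5) and 3 of 19 ABCI genes (4.91). They lay at 4 of 5 ABCF genes (1.52), 1 of 2 ABCD genes (0.703) and 0 of 3 ABCE genes (0.781). A peak of either library was found at 9 of 12 ABCA genes (6.12 by length), 11 of 15 ABCC genes (8.44), 14 of 28 ABCB genes (14.7) and 4 of 19 ABCI genes (7.14). ABCI genes are the shortest of the larger subfamilies, with a median of 2235 bp against 6212 bp for ABCC genes, and the length-based count for them is low for that reason. In density over the merged bodies and flanks, ABCC genes had 77.4 formaldehyde and 69.7 glutaraldehyde midpoints per Mb, ABCB genes 31.2 and 41.5, and ABCI genes 12.8 and 38.4. These differ by a few peaks each, from 10 formaldehyde midpoints at ABCC genes to 1 at ABCI genes, and no difference between subfamilies was tested.

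The ABCG subfamily has a smaller type of transporter, the white-brown complex (WBC) type, numbered here as ABCG1 to ABCG28, and a larger pleiotropic drug resistance (PDR) type from ABCG29 upward. Of the 28 WBC genes 12 had a formaldehyde peak, against 5.58 by length, and 9 a glutaraldehyde peak, against 8.48. Of the 15 PDR genes, to which ABCG30, ABCG31 and ABCG40 belong, 3 had a formaldehyde peak, against 4.31 by length, and 2 a glutaraldehyde peak, against 6.05. The PDR genes are longer, with a median of 6614 bp against 2932.5 bp for the WBC genes, so that in these libraries the longer type had the smaller share of genes with a peak. The 3 PDR genes with a formaldehyde peak were ABCG39, ABCG38 and ABCG34, and the 2 with a glutaraldehyde peak were ABCG32 and ABCG34.

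**Figure D2:**
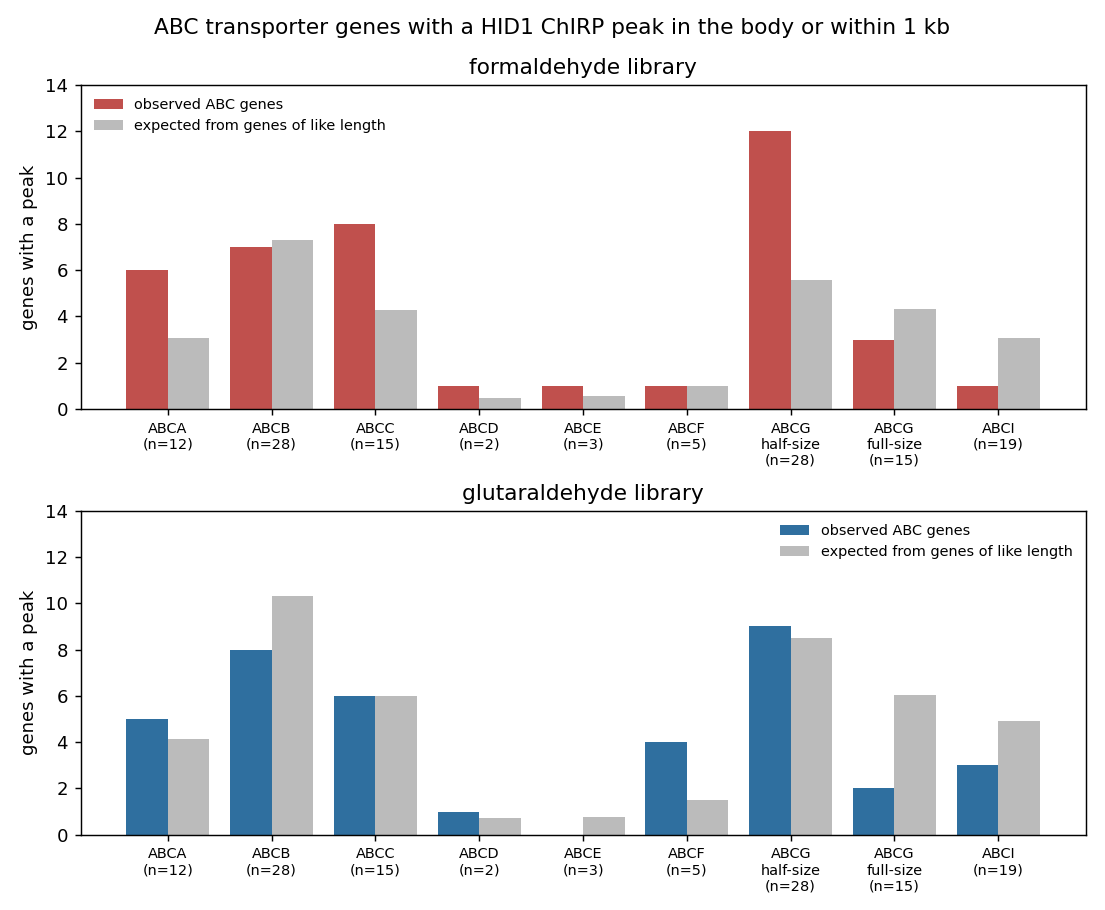
Number of ABC genes with a peak in the body or within 1 kb (vertical axis) by subfamily, with ABCG split into the WBC type (half-size, ABCG1 to ABCG28) and the PDR type (full-size). Coloured bars are observed counts and grey bars the counts given by gene length, formaldehyde above and glutaraldehyde below; 12 of 28 WBC genes with a formaldehyde peak stand beside 5.58 by length, and 2 of 15 PDR genes with a glutaraldehyde peak beside 6.05.

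The formaldehyde library had 44 distinct peaks at ABC genes, with scores from 50.6 to 291 and a median of 70.3, against a median of 72.6 for its peaks at all protein-coding genes and 74.3 for its whole list. The glutaraldehyde library also had 44, with scores from 51.1 to 201 and a median of 86.5, against 72.5 at all protein-coding genes and 72.3 for its whole list. A score of 100 or more was held by 8 of the 44 formaldehyde peaks (18.2%), against 23.3% of formaldehyde peaks at all protein-coding genes and 26.9% of the whole list. It was held by 17 of the 44 glutaraldehyde peaks (38.6%), against 22.9% and 22.8%. The formaldehyde count thus lay above that given by length, with a lower median score and a smaller share at 100 or more than in its list. The glutaraldehyde count lay below that given by length, with a higher median score and a larger share. Counted by genes, 8 ABC genes (6.3%) had a formaldehyde peak of score 100 or more, against 4.31% of all protein-coding genes and 7.41 genes by length. For glutaraldehyde these were 16 ABC genes (12.6%), against 6.6% and 11.5 genes by length.

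The strongest formaldehyde peak at a member lay within the body of ABCG39 (AT1G66950), at 24983317 to 24984583 of chromosome 1, with a score of 291 and rank 47 of 4557. ABCG39, also called PDR11, is a PDR transporter with a reported part in uptake of the herbicide paraquat, and its nearest glutaraldehyde peak was 1887 bp from the gene. The other formaldehyde peaks of score 100 or more had scores from 100 to 141. Those inside gene bodies were at ABCC13 (3520867 to 3521847 of chromosome 2, score 141), ABCG38 (12594587 to 12595353 of chromosome 3, score 136), ABCB5 (787210 to 788202 of chromosome 4, score 122) and ABCA4 (17609089 to 17609698 of chromosome 3, score 121). The peak at ABCG5, with a score of 100, crossed the edge of the gene. The peaks at ABCI6 (score 136) and ABCG21 (score 102) lay outside the bodies. ABCI6 encodes SUFC, the ATPase of the plastid machinery that assembles iron-sulfur clusters. Its peak, at 3337656 to 3338917 of chromosome 3, touched the body of the neighbour AT3G10680.

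The strongest glutaraldehyde peak at a member lay in the body of ABCB6 (AT2G39480), at 16478818 to 16479585 of chromosome 2, with a score of 201 and rank 122 of 6306. ABCB6 is a relative of the auxin exporters ABCB1 and ABCB19. Next came ABCG11 (score 169, 6142830 to 6143508 of chromosome 1), a transporter of cutin and wax lipids, and ABCI7 (score 165, 11751546 to 11752438 of chromosome 1), which encodes SUFD of the same plastid machinery as ABCI6. ABCG18 (score 149, peak outside the body) and ABCG16 (score 147) lie in the same array of genes on chromosome 3. ABCF1 (score 139) and ABCF3 (score 121) encode soluble proteins. The further members with a glutaraldehyde peak of 100 or more were ABCC11 (133), ABCG14 (127), ABCG19 (117), ABCB28 (114), ABCI10 (114), ABCC1 (110) and ABCC10 (105), and ABCB3 and ABCB5, which met the same peak of score 116. The glutaraldehyde peaks of 100 or more at ABCI10 and ABCB3 lay outside their bodies. At ABCB28 3.89% of the peak lay in the body, at ABCC1 13.5%, at ABCG14 24.5% and at ABCG19 33.5%. ABCB5 was the member with a peak of 100 or more in both libraries.

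**Figure D3:**
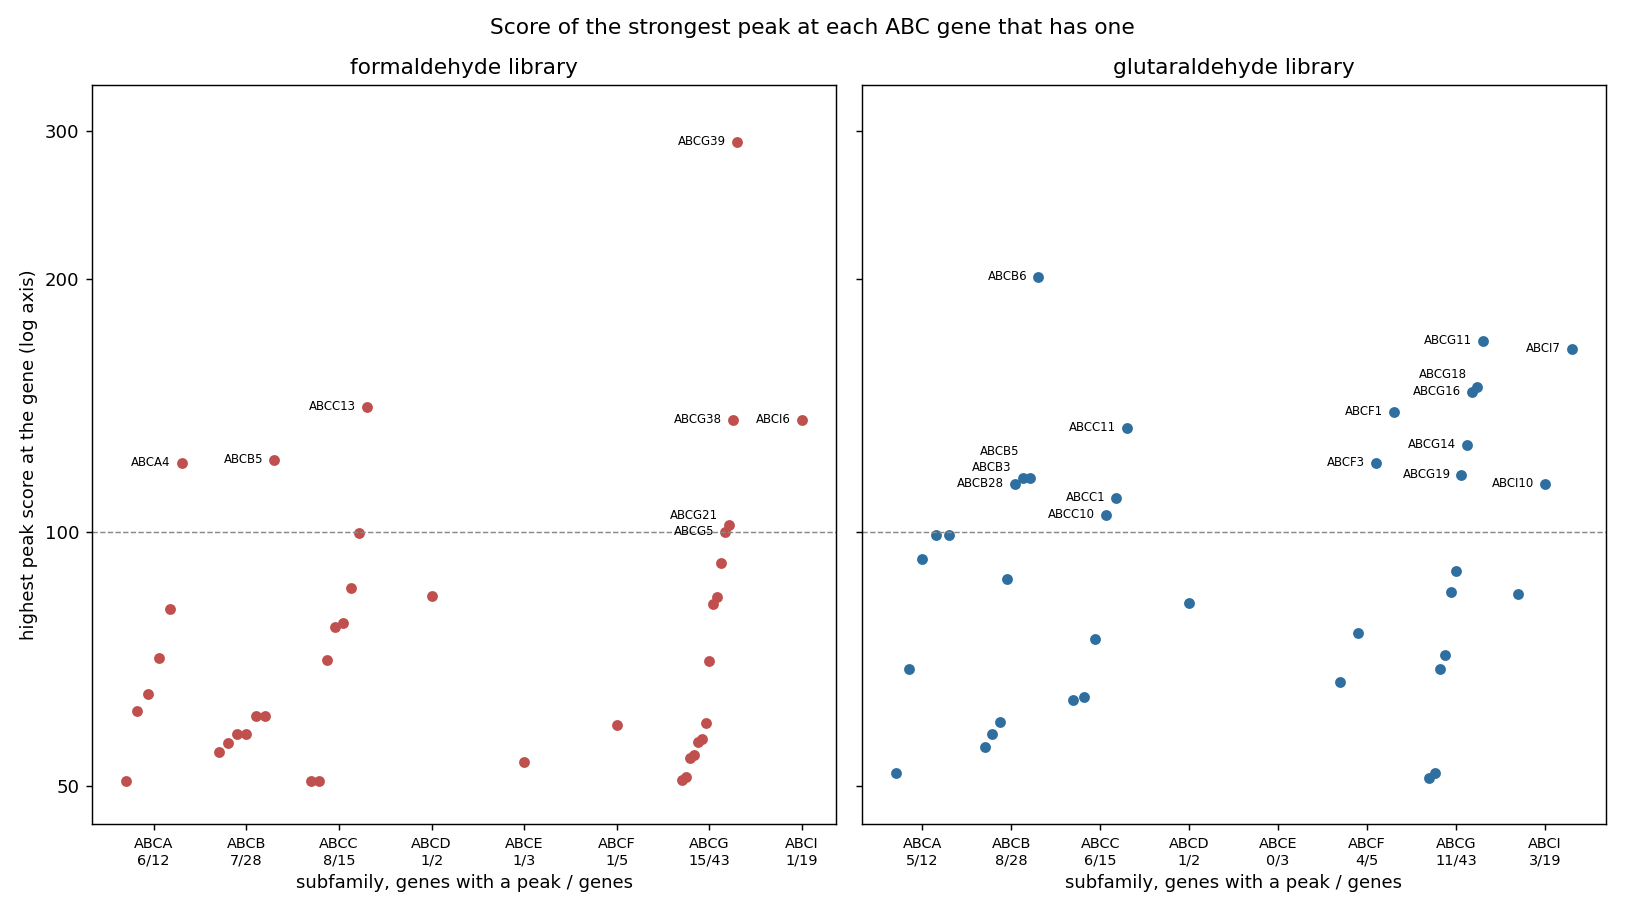
Score of the strongest peak at each ABC gene that has one (vertical axis, log scale, peak caller's score) by subfamily, with the formaldehyde library in the left panel and the glutaraldehyde library in the right. Each point is a gene, the dashed line marks a score of 100 and genes above it are named; 8 genes reach the line in the formaldehyde panel, with ABCG39 at 291, and 16 in the glutaraldehyde panel, with ABCB6 at 201. Scores are not comparable between panels.

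A peak of each library was found at 13 ABC genes (10.2%), against 4.84% of all protein-coding genes and 10.9 genes by length (ratio 1.19). Among them were ABCA1, ABCA6, ABCB5, ABCC1, ABCC10, ABCC11, ABCF1, ABCG5, ABCG11, ABCG14, ABCG18 and ABCG34. At 11 of the 13 the peaks of the libraries lay at different places, 128 bp apart at ABCC1, for example, and 2519 bp apart at ABCG14. Peaks that overlapped each other were found at 2 members (1.57%), against 1.77% of all protein-coding genes and 3.12 genes by length. Of the 1329 protein-coding genes with a peak of each library, 485 had overlapping peaks.

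In ABCC11 (AT1G30420) the overlap ran for 325 bp inside the gene body, at 10750872 to 10751196 of chromosome 1, with a formaldehyde score of 50.6 and a glutaraldehyde score of 133. The formaldehyde peak stood close to the bottom of its list, at rank 4470 of 4557. At ABCG5 (AT2G13610) the overlap ran for 405 bp at 5672977 to 5673381 of chromosome 2, with scores of 100 and 85.0. The ABCG5 overlap lay outside the body of ABCG5 and touched the neighbouring gene SLO2, which encodes a pentatricopeptide repeat protein. The overlap made up 46.3% of the formaldehyde peak and 40.8% of the glutaraldehyde peak at ABCC11, and, at ABCG5, 405 of the 1447 bp of the formaldehyde peak and 405 of the 558 bp of the glutaraldehyde peak.

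**Figure D4:**
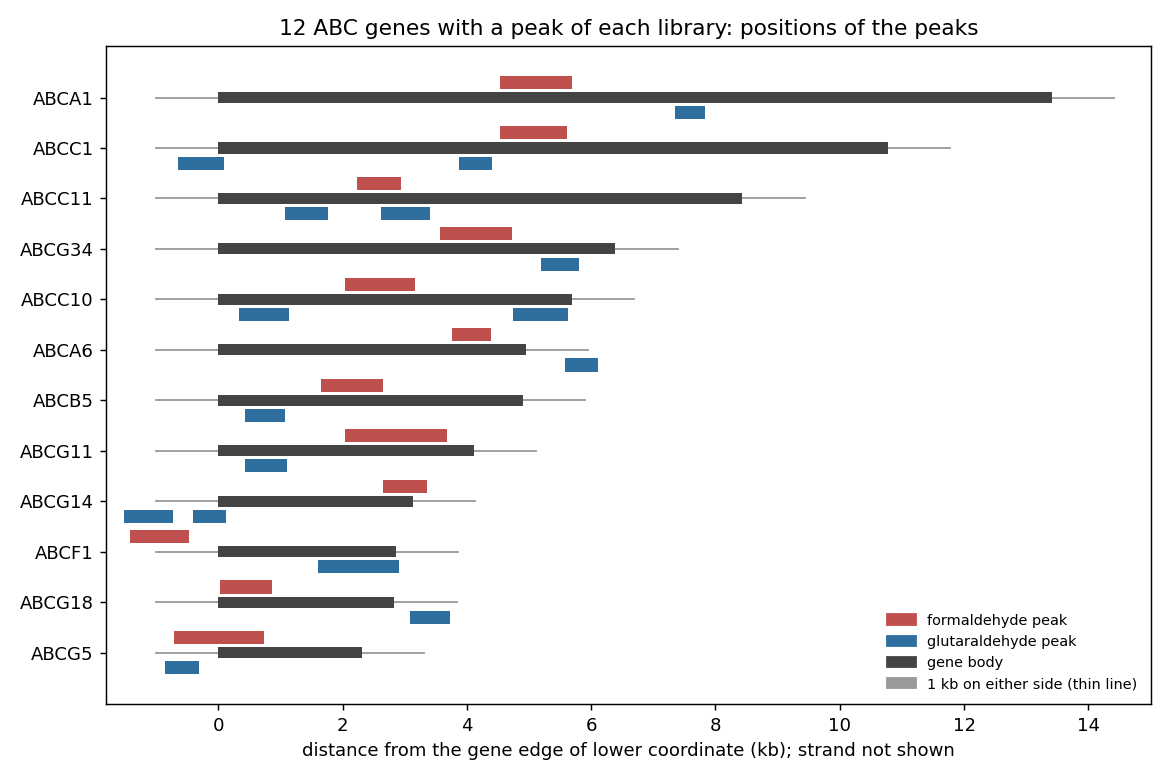
Peaks of the formaldehyde library (above each gene) and the glutaraldehyde library (below) at 12 ABC genes with a peak of each. The horizontal axis is the distance in kb from the gene edge of lower coordinate, dark bars are gene bodies and thin lines 1 kb on either side; peaks of the libraries overlap at ABCC11 and ABCG5 and lie 2519 bp apart at ABCG14.

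Relative to the gene bodies, 34 of the 47 pairings of a member with a formaldehyde peak (72.3%) had the peak midpoint in the body, against 56.1% over all protein-coding genes. For glutaraldehyde these were 28 of 46 (60.9%), against 48.0%. Longer bodies hold more midpoints, and this comparison was not adjusted for length. Of the formaldehyde pairings 11 lay wholly outside the member's body. Of those peaks 10 touched the body of another protein-coding gene by at least 1 bp, such as AT5G61720 beside ABCA9, NRT2.3 beside ABCF1 and SERAT2;2 beside ABCC7. The overlap could be partial, as for the peak beside ABCB18, with 26.1% of its length in ABCB17. Of the glutaraldehyde pairings 13 lay outside the body, and 7 of them touched another protein-coding gene. A window of 1 kb therefore assigned to a member some peaks that touch a neighbour's body and not its own. With bodies alone, 33 ABC genes had a formaldehyde peak, against 24.4 by length and 11.4% of all protein-coding genes. For glutaraldehyde there were 29, against 32.5 by length and 16.7% of all protein-coding genes. Just beyond the limit, 8 members had their nearest formaldehyde peak between 1 and 2 kb away, from ABCB28 at 1142 bp to ABCA7 at 1984 bp (6.3%, against 5.55% of all protein-coding genes). For glutaraldehyde there were 10, from ABCB25 at 1156 bp to ABCG39 at 1887 bp (7.87%, against 8.44%).

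Many ABC genes lie near one another, most often beside members of their own subfamily. Members within 10 kb of another member numbered 41, in 13 arrays, and 18 of them had a formaldehyde peak, against 9.96 by length. Among the 86 other members 22 had one, against 19.7 by length. Glutaraldehyde peaks were found at 12 array members (14.2 by length) and at 26 other members (28.7 by length). Neighbours are not independent: 3 formaldehyde peaks and 2 glutaraldehyde peaks lay within 1 kb of 2 members each. In bodies alone, 15 array members had a formaldehyde peak, against 8.25 by length. Near-identical relatives in an array can also exchange reads, and how multiply mapped reads were treated is not stated in the labels; its part in these counts was not tested.

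On chromosome 1, the neighbours ABCC1, ABCC12 and ABCC11 spanned 29.4 kb with 4 formaldehyde and 4 glutaraldehyde peaks. ABCC1, a vacuolar transporter of phytochelatins that also carries ABA glucosyl ester, held a formaldehyde peak at 10731856 to 10732924 (score 78.0). It also held a glutaraldehyde peak at 10731193 to 10731727 (score 79.6) and met another at its edge with a score of 110. ABCC12 held formaldehyde peaks with scores of 77.1 and 70.3 and had no glutaraldehyde peak within 1 kb.

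The array of ABCC3, ABCC6 and ABCC7 on chromosome 3 had 3 formaldehyde peaks and 0 glutaraldehyde peaks. ABCC3, a vacuolar transporter of glutathione conjugates, held one with a score of 86.0, and ABCC7 one with a score of 78.8. The 7 genes from ABCA2 to ABCA8 spanned 39.9 kb of chromosome 3 with formaldehyde peaks in ABCA4, ABCA5 and ABCA6. A glutaraldehyde peak lay in ABCA3, with a score of 51.8, and another lay between ABCA6 and ABCA7, at 17623558 to 17624075 of chromosome 3, with a score of 99.2. The array of ABCG16, ABCG17, ABCG18 and ABCG19 had 1 formaldehyde peak, at ABCG18, and 3 glutaraldehyde peaks. The ABCG30 array, with ABCG41, ABCG42 and ABCG43, spanned 31.4 kb with 0 peaks of either library.

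**Figure D5:**
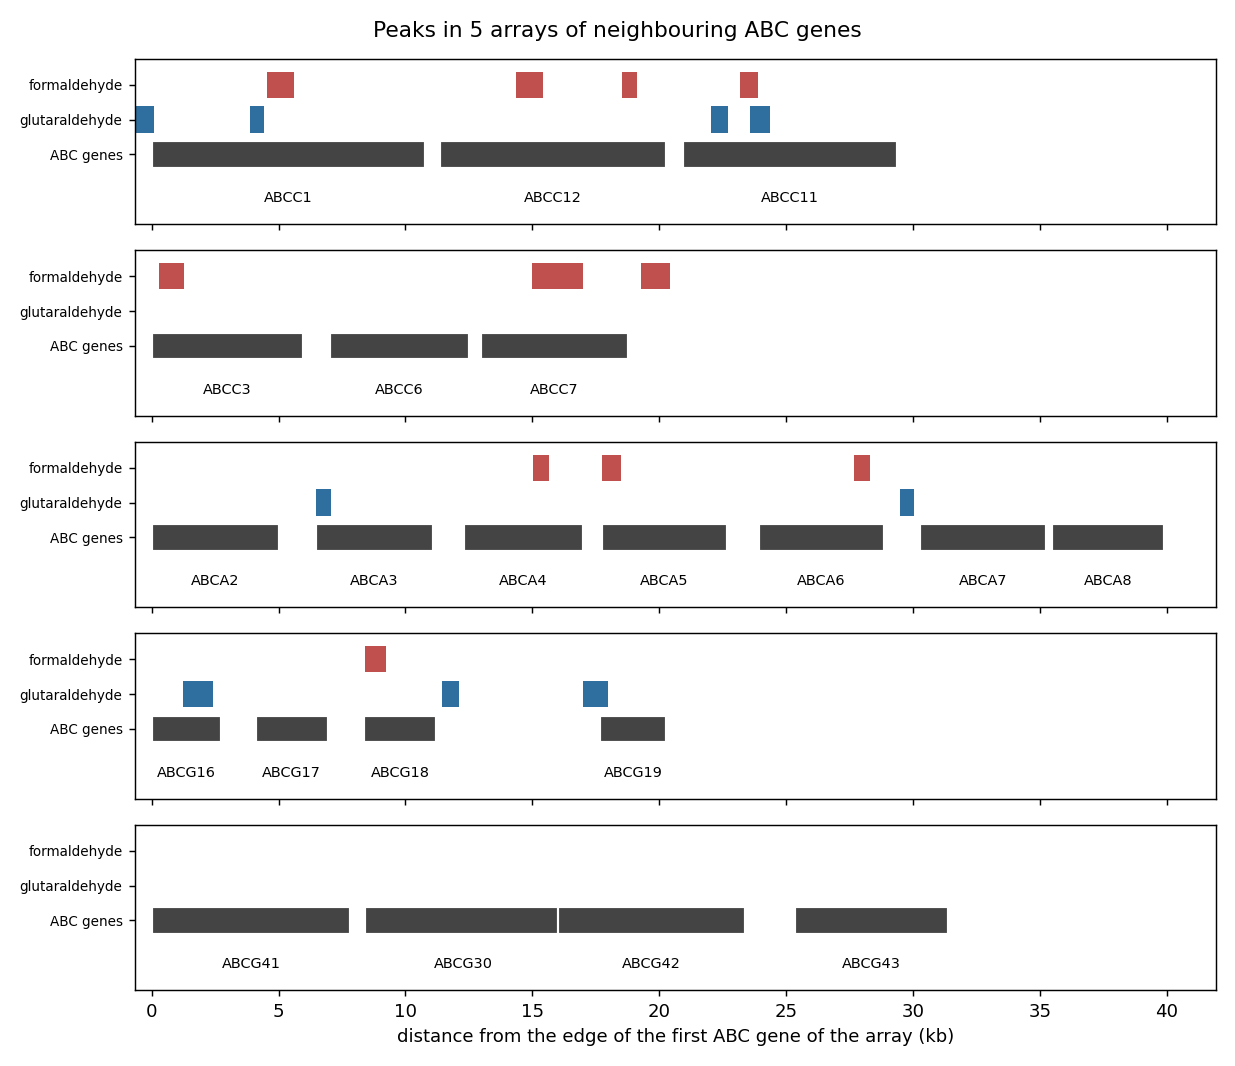
Positions of peaks in 5 arrays of neighbouring ABC genes. The horizontal axis is the distance in kb from the edge of the first ABC gene, dark bars are ABC genes, and the upper and middle rows are formaldehyde and glutaraldehyde peaks within 1 kb of a member; the ABCC1 array has 4 peaks of each library, the ABCC3 array 3 formaldehyde and 0 glutaraldehyde peaks, and the ABCG30 array 0 of either.

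Grouped by known roles, 4 of 6 further genes with links to ABA, other than the 4 seed carriers, had a peak of either library (2.95 by length). A formaldehyde peak was found at 3 (1.41 by length) and a glutaraldehyde peak at 3 (2.07 by length). ABCG22, which affects water loss through stomata, held a formaldehyde peak at 1990001 to 1991029 of chromosome 5 with a score of 83.8. ABCG18, reported with ABCG17 as an ABA importer, had a formaldehyde peak in its body (score 59.4, 20424576 to 20425420 of chromosome 3) and a glutaraldehyde peak beside it (score 149, from 20427631 to 20428275). ABCG16, linked to pollen walls and to ABA and jasmonate responses, held a glutaraldehyde peak at 20417434 to 20418598 of chromosome 3 with a score of 147. ABCC1 completed the 4, and ABCG17 and ABCC2 had no peak.

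Among 8 genes for cuticle and suberin lipids, 5 had a formaldehyde peak (1.67 by length) and 2 a glutaraldehyde peak (2.48 by length). The formaldehyde peaks lay in or across the bodies of ABCG1 (score 82.3), ABCG2 (54.4), ABCG11 (56.9), ABCG13 (50.8) and ABCG20 (56.4). ABCG2, ABCG6 and ABCG20 act in suberin of roots and seed coats, and ABCG20 is the gene of the awake1 mutant, whose seeds have reduced dormancy. Its peak lay at 19838938 to 19839783 of chromosome 3, and its nearest glutaraldehyde peak was 1376 bp from the gene. The glutaraldehyde peaks of this group were those of ABCG11 and ABCG32, a transporter of cutin precursors, which held peaks with scores of 90.1 and 55.1. All 5 formaldehyde scores were below 100, and the lowest stood at rank 4443 of 4557.

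Of 10 genes linked to auxin transport, 0 had a formaldehyde peak (2.84 by length) and 4 a glutaraldehyde peak (3.97 by length). The 4 were ABCB6, the exporters ABCB1 (score 55.6) and ABCB19 (score 59.5), and ABCB14 (score 57.6), which is also known as a malate importer of guard cells. Of 7 genes of organelle and metal transport, 4 had a formaldehyde peak (1.66 by length) and 0 a glutaraldehyde peak (2.41 by length). These were ABCC3 and the mitochondrial transporters ABCB23, ABCB24 and ABCB25, of which ABCB25 exports a sulfur compound used for iron-sulfur proteins outside mitochondria. The peak of ABCB23 lay in the body of its neighbour ABCB24, and that of ABCB25 touched the body of NdhN. In bodies alone, 2 of the organelle and metal genes had a formaldehyde peak, against 1.38 by length. The absence of glutaraldehyde peaks depends on how the list was drawn. ABCC1, a phytochelatin transporter counted above with the ABA genes, had 2 of them. The glutaraldehyde count of the auxin genes was near that given by length, with a ratio of 1.01. In the organelle group ABCB23 and ABCB24 met the same formaldehyde peak, so its 4 genes are not independent. No difference between the auxin and the organelle genes was tested.

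ABCG14, which loads cytokinin for transport from root to shoot, had a formaldehyde peak of score 53.9 at one edge of its body and glutaraldehyde peaks of scores 127 and 88.4 at and beyond the other. ABCC5, which loads phytate into seed vacuoles, had no peak of either library. ABCA9 supplies fatty acids for seed oil, and its formaldehyde peak (score 64.3) lay 860 bp from the gene and touched AT5G61720. Of 6 pollen wall genes, ABCG1 and ABCG9 (score 70.3) had a formaldehyde peak (1.24 genes by length) and ABCG16 and ABCG26 (score 68.9) a glutaraldehyde peak (1.90 by length). ABCG26 exports precursors of the outer pollen wall.

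The 8 soluble ABCE and ABCF genes had a formaldehyde peak in 2 cases (1.54 by length) and a glutaraldehyde peak in 4 (2.30 by length). ABCF proteins are relatives of yeast GCN20, a factor of translational control, and ABCE proteins of a ribosome recycling factor of yeast and animals. All 4 glutaraldehyde peaks were at ABCF genes, ABCF1 (score 139), ABCF2 (66.5), ABCF3 (121) and ABCF4 (76.0), and touched the gene bodies, whereas ABCF5 had no peak. The formaldehyde peaks were at ABCE3 (score 53.4) and ABCF1 (59.0), the second lying outside the body of ABCF1 and touching that of NRT2.3. Of the 6 genes of the SUF machinery and of the TGD lipid importer of plastids, ABCI6 had a formaldehyde peak (0.973 genes by length) and ABCI7 a glutaraldehyde peak (1.59 by length), and ABCI8, ABCI13, ABCI14 and ABCI15 had none.

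The members with 2 peaks of 1 library within 1 kb were 7 for formaldehyde (5.51%, against 1.44% of all protein-coding genes with 2 or more and 4.14 genes by length). For glutaraldehyde they were 8 (6.3%, against 3.32% and 7.96 genes by length), and no member had more than 2 of either library. The formaldehyde genes were ABCA4, ABCB17, ABCB24, ABCC7, ABCC12, ABCC13 and ABCG22. The glutaraldehyde genes were ABCB3, ABCC1, ABCC10, ABCC11, ABCG3, ABCG14, ABCG32 and ABCI10. ABCC13 held both of its formaldehyde peaks in its body, with scores of 141 and 64.1, and ABCC10 both of its glutaraldehyde peaks, with scores of 105 and 102. The ABCC10 formaldehyde peak (score 70.5) lay between them, 909 bp from the closer one.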

How the data were processed

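Samples were grouped by title into HID1 probe, mock and input libraries. Each probe library has a deposited peak list with 1 score for each peak. This deposited score comes from the peak caller and was used only inside each list, for ranks and limits. Tools named in the submitters' processing notes are Bowtie2 2.1.0 and MACS 1.4.2, with the build TAIR10. The peak calling control, duplicate handling and depth are not stated there.

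Gene positions came from RefSeq's TAIR10.1 table, whose nuclear chromosomes share TAIR10 coordinates, from background knowledge. As a rough check, on each of the 5 chromosomes formaldehyde midpoints were rarest 100 to 400 bp outside gene edges. The place of the minimum differed between chromosomes and was not set beforehand, so a small shift of coordinates would not be seen. The table has no strand, exons or sequence, so no promoter, intron or sequence is given. Printed positions are those of peaks, in TAIR10 and counted from 1.

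A gene had a peak if at least 1 bp lay in its body or within 1 kb. Expected counts are sums of the shares over 20 length bins of all 27444 nuclear protein-coding genes. Interval search was checked against a plain search of the deposited peaks for a sample of genes. Expected counts were checked with simulated hits on the real gene lengths (Python 3.11.15, pandas 2.3.3). The members and role lists were chosen with earlier results of these data known. Genes named have a peak of each library, a score of 100 or more, 2 peaks, a role list or an ABA carrier role. Other array members, and those that bound a range of distances, were named after their values were seen. Values of 1 gene named by this rule are not reported here. No test or p-value was computed. Alternatives changed the window, score, overlap, names and length bins.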

Additional observations from a re-analysis of the deposited data

How the results depend on the processing

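Counts of ABC genes with a peak changed by less than 1.5 times with gene bodies only, windows of 500 bp or peak midpoints. With a window of 2 kb the count with a peak of each library was 24, against 13 at 1 kb. At a score of 100 or more, 8 genes had a formaldehyde peak, 16 a glutaraldehyde peak, 1 a peak of each library and 104 no peak, since fewer peaks enter. Requiring the libraries' peaks to overlap left 2 genes at 1 bp and 0 at 50% of each peak. Names with a species prefix added no member. Leaving out 1 library gave 87 to 89 genes with no peak, against 62.

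The ratio of observed to length-based counts was 1.35 for formaldehyde and 1.34 to 1.38 under other length bins, windows and, chosen after seeing the data, classes of regional peak density, but 1.08 at a score of 100 or more. It also differed within the family, with 1.81 for array members and 1.12 for the other ABC genes. For glutaraldehyde the ratio was 0.887 and up to 0.92 under the same bins, windows and classes, and 1.39 at a score of 100 or more. Its side of 1 thus depends on the score limit. The cause was not tested. For genes with no peak it was 0.948 and lay between 0.932 and 1.01. Of 48 subfamily counts under 3 alternatives added after seeing the data, 18 moved by over 1.5 times and 30 did not. No paired analysis was possible because no test was made and the groups that share numbers (mock, input) were not analysed here. Read depth is unknown, so genes with no peak cannot be read as unbound.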
